A study of Mus musculus with 32 samples.

Results

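The 41 genes described here are interferon-stimulated genes, a list chosen by name from the 54446 genes of the count tables. All 41 were found there, and all 41 had enough reads to be tested in every comparison. They were followed by RNA sequencing in 32 tumours of the mouse liver cancer line BNL-MEA, grown in the livers of BALB/c mice with an intact immune system. In the dose experiment, mice received vehicle (4 tumours), regorafenib at 5 mg/kg/day (3) or regorafenib at 20 mg/kg/day (3). In the DC-101 experiment, they received vehicle (4), regorafenib at 5 mg/kg/day (3) or 800 µg of DC-101 into the peritoneum on days 1, 3 and 5 (3). In the anti-PD1 experiment, they received vehicle (3), regorafenib at 5 mg/kg/day (3), anti-PD1 (3) or regorafenib with anti-PD1 (3). Regorafenib is taken by mouth and inhibits a range of kinases, the VEGF receptors among them, DC-101 is an antibody against mouse VEGFR2, and anti-PD1 blocks a receptor that restrains T cells. The 5 mg/kg/day dose is called low and the 20 mg/kg/day dose high. Each treatment was compared with the vehicle of its own experiment, which asks whether the dose, VEGFR2 blockade alone or checkpoint blockade moved the interferon response of the tumour.

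Type I interferons (alpha and beta) act through a complex that includes STAT2 and IRF9 and binds the interferon-stimulated response element (ISRE). Interferon gamma, made mainly by T and NK cells, acts through the gamma-activated site (GAS). In tumours the type I response is known as a product of nucleic acid sensing, and the gamma response as a trace of lymphocyte activity. The 41 genes were divided by this knowledge into 31 that respond strongly to type I interferon, 9 GTPases that respond more to interferon gamma, and Irf1, a transcription factor induced by either. The type I genes were Isg15, Usp18 and Herc6 of the ISG15 conjugation system, the RNA-binding Ifit1, Ifit2 and Ifit3, the OAS family members Oas1a, Oas2, Oas3, Oasl1 and Oasl2, the nucleic acid sensors and regulators Ddx58, Ifih1, Dhx58 and Zbp1, the transcription factors Irf7, Irf9 and Stat2, the ubiquitin and PARP enzymes Parp9, Parp14, Dtx3l and Trim30a, and the further effectors Mx2, Rsad2, Cmpk2, Bst2, Eif2ak2, Rtp4, Ifi35, Ifi44 and Xaf1. The GTPases were Gbp2, Gbp3, Gbp4, Gbp5, Gbp7, Iigp1, Igtp, Irgm1 and Irgm2. The division is a matter of degree, since most of these genes answer to both kinds of interferon.

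The promoters show what the groups share in sequence. RefSeq's promoter table (GRCm38.p6) held 31 of the 41 genes with 36 promoters in all, and the 250 bases before each start were searched on both strands for the ISRE core GAAANNGAAA and the GAS core TTCNNNGAA. The ISRE core was in 7 of 8 GTPase promoters (87.5%), 9 of 26 type I promoters (34.6%) and 2.98% of all 32851 promoters. The GAS core was in 4 of 8 GTPase promoters, 4 of 26 type I promoters (15.4%) and 7.02% of all promoters. A stretch of 130 bases before the start is shown for 8 genes that carry a match, 5′ to 3′ on the strand of the gene, with every match in capitals. Isg15, Ifit1, Rsad2 and Oas1a stand for the type I genes, Igtp, Irgm2 and Gbp7 for the GTPases, and Irf1 for itself. An ISRE core on the other strand reads TTTCNNTTTC. The stretches lie at chr4:156200819-156200948 (minus strand) for Isg15, chr19:34640741-34640870 (plus strand) for Ifit1, chr12:26456453-26456582 (minus strand) for Rsad2, chr5:120907526-120907655 (minus strand) for Oas1a, chr11:58199426-58199555 (plus strand) for Igtp, chr11:58214847-58214976 (plus strand) for Irgm2, chr3:142530206-142530335 (plus strand) for Gbp7 and chr11:53769884-53770013 (plus strand) for Irf1.
Isg15: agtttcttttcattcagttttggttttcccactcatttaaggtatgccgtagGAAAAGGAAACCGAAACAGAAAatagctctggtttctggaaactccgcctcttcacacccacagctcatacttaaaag
Ifit1: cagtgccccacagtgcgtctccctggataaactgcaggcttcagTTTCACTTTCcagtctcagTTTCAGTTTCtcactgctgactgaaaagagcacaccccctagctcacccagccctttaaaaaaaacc
Rsad2: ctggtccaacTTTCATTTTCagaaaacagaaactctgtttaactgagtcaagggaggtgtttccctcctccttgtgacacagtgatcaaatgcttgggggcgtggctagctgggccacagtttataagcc
Oas1a: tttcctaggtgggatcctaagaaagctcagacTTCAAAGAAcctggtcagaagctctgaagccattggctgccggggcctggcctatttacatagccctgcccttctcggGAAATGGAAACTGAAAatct
Igtp: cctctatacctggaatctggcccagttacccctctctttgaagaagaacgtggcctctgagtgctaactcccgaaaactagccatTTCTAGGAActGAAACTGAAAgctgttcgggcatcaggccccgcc
Irgm2: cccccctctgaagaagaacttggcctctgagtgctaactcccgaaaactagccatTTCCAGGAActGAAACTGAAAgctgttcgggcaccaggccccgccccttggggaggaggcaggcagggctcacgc
Gbp7: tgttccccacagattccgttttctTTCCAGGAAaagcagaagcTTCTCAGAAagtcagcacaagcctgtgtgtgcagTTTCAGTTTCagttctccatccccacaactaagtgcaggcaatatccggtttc
Irf1: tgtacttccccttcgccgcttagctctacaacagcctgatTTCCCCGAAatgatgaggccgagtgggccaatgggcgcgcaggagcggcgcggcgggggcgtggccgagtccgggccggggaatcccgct
Isg15 had 3 overlapping ISRE cores in a single run, and Ifit1 had 2 that lay apart. In Igtp and Irgm2 a GAS core was followed by an ISRE core, and the stretches of this neighbouring pair matched at 94 of 100 aligned bases. The Irf1 promoter shown held a GAS core and no ISRE core. These matches describe the letters of the promoters and were not tested as binding sites.

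Libraries held 16.8 to 27.7 M counts, and the lowest count of any member in any library was 28 (Oas3). Values are given as log2 CPM, the base-2 logarithm of counts scaled to a common library size (CPM) by TMM within an experiment, and changes as log2 fold changes with their standard errors (SE) from edgeR's quasi-likelihood test. A call is an adjusted p under 0.05, adjusted by Benjamini-Hochberg over all genes of the experiment. Some libraries stood apart. The TMM factor of high-dose replicate 1 was 0.678, below the next lowest of 0.867, and 5.37% of its counts were mitochondrial, beside 0.26% to 2.86% in the other libraries. The summed level of 12 hepatocyte markers ran from 5.14 to 16.78 on the log2 scale over the 32 libraries. Replicate 1 of the anti-PD1 experiment's vehicle had a mean GTPase level of 7.40 against 4.83 and 4.84 in the other two vehicle tumours. Of 6 liver tumour markers, Krt8 and Krt18 had at least 22 counts in every library, while Afp, Epcam, Gpc3 and Krt19 fell to 1 or 2 counts in some. These are bulk tumours, so a change in the number of cells of a type and a change in RNA per cell cannot be told apart. The labels do not say outright that each library is a separate mouse, so p-values measure the spread between these libraries.

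**Figure D1:**
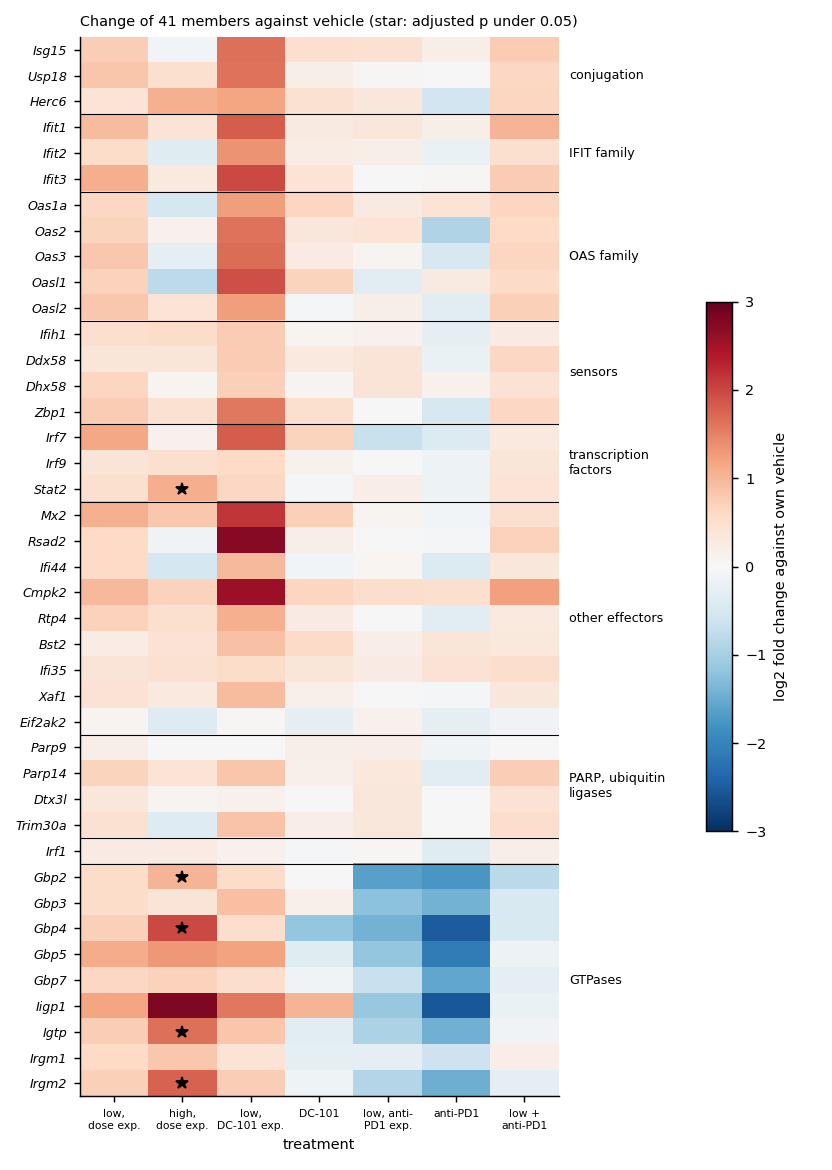
Log2 fold change of the 41 members (rows, ordered by role) under each treatment against its own vehicle (columns), from blue (lower) over white (0) to red (higher), with a star for an adjusted p under 0.05. The 5 stars, Stat2, Gbp2, Gbp4, Igtp and Irgm2, are all in the high-dose column, while the low-dose columns of the dose and DC-101 experiments hold no value below 0.

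The pattern over treatments was as follows. Under the low dose in the dose and DC-101 experiments, all 41 members had a log2 change of 0 or more. Under the high dose the groups parted, with a median of 1.30 over the GTPases and 0.29 over the type I genes. In the anti-PD1 experiment the GTPase medians were below 0, between -1.57 and -0.27, and the type I medians between -0.11 and 0.53, and the sign of several of these rested on vehicle replicate 1. Under DC-101 the type I median was 0.24 and the GTPase median -0.14, and the sign of the GTPase median turned with single libraries.

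**Figure D2:**
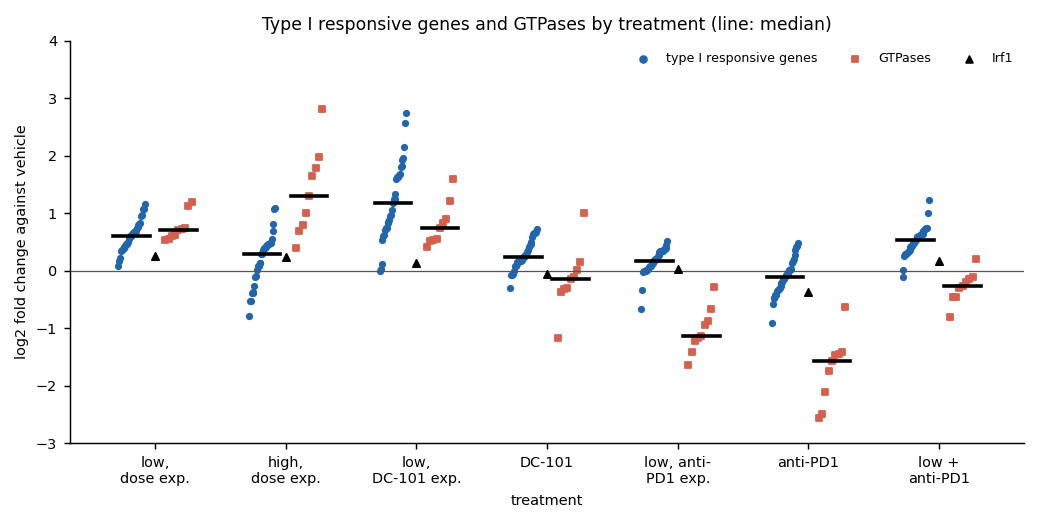
Log2 fold change against vehicle (y axis) of 31 type I responsive genes (blue circles), 9 GTPases (red squares) and Irf1 (black triangle) for each treatment, with a line at each median. The GTPase median is above the type I median under the high dose (1.30 and 0.29) and below it in the anti-PD1 experiment, for example under anti-PD1 (-1.57 and -0.11).

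The low dose in the dose experiment gave small changes of one direction. No member was called with edgeR (0 of 41, beside 0% of the 16525 genes tested), nor with limma-voom, and DESeq2 called 2 (Isg15 and Dhx58), beside 0.514% of all genes. At an unadjusted p under 0.05, 20 of the 41 were higher (48.8%), beside 2.41% of all genes. Without low-dose replicate 3 these were 9 type I genes and no GTPase, with a GTPase median of 0.43, and the number was 11 without low-dose replicate 1 and 25 type I genes and 7 GTPases without low-dose replicate 2. Without vehicle replicate 1 it was 10 type I genes and 1 GTPase, and without vehicle replicate 3 it was 12 and 1. It was 26 and 8 in a fit on only the groups compared (beside 2032 of 15798 genes in either direction), and 10 and 0 with a replicate block (beside 396 of 16525). Where no count over all genes stands beside a leave-out count, here or below, the share of all genes may have moved as well. The low-dose and vehicle libraries did not overlap, with the low dose above, for 16 members (39%), beside 6.91% of all genes. The median log2 change was 0.61 over the type I genes, 0.71 over the GTPases and 0.00 over all genes. The mean type I level was between 4.08 and 4.32 log2 CPM in the 4 vehicle tumours and between 4.41 and 5.05 under the low dose.

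Isg15, the ubiquitin-like modifier, had 3.78, 3.88, 3.63 and 4.04 log2 CPM in the vehicle tumours and 4.57, 4.23 and 4.86 under the low dose. All low-dose values were above all vehicle values, with a log2 change of 0.74 ± 0.18 (SE, adjusted p = 0.653). Irf7, the factor that amplifies type I interferon production, had 4.52, 4.63, 4.69 and 5.19 in vehicle and 5.95, 4.88 and 6.54 under the low dose, so replicate 2 lay within the vehicle range. Its log2 change was 1.17 ± 0.42. Oas1a, which makes the second messenger that activates RNase L, had 3.99, 3.82, 4.13 and 4.30 in vehicle and 4.67, 4.46 and 4.89 under the low dose, again without overlap (0.61 ± 0.19). The other type I genes followed for values were Ifit1 (0.96 ± 0.31) and Ifit3 (1.08 ± 0.35), which bind viral RNA, Rsad2 (0.60 ± 0.45), the antiviral viperin, and Oasl1 (0.70 ± 0.32), an OAS-like protein. Usp18, which removes ISG15 from proteins, had 0.84 ± 0.26, Stat2 had 0.47 ± 0.28 and Ddx58, the RNA sensor RIG-I, had 0.36 ± 0.12. The smallest change was that of Eif2ak2, the kinase PKR, at 0.09 ± 0.17.

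Among the GTPases, the guanylate-binding proteins (Gbp) attack membranes around pathogens, and the immunity-related GTPases (Iigp1, Igtp, Irgm1, Irgm2) act on the same membranes. Gbp2 had 4.82, 5.16, 5.52 and 5.14 log2 CPM in vehicle and 5.67, 5.37 and 6.08 under the low dose, where replicate 2 lay within the vehicle range. Its log2 change was 0.56 ± 0.29. Iigp1 had 3.53, 5.40, 4.70 and 5.21 in vehicle and 5.02, 4.67 and 7.14 under the low dose, so its change of 1.19 ± 0.82, the largest of the members here, came from replicate 3. Changes were 1.12 ± 0.40 for Gbp5, 0.74 ± 0.34 for Igtp and 0.60 ± 0.27 for Irgm1. Irf1 had 6.54, 6.44, 6.79 and 6.72 in vehicle and 6.90, 6.85 and 6.88 under the low dose, a change of 0.25 ± 0.12 without overlap. T and NK cell markers were also above vehicle, 6 of 11 tested markers at an unadjusted p under 0.05 and none called, and their summed level was 3.65 to 4.60 in vehicle and 4.82 to 5.08 under the low dose. Macrophage markers were above vehicle as well, 6 of 10 at an unadjusted p under 0.05, with a summed level of 10.88 to 11.69 in vehicle and 11.96 to 12.18 under the low dose. The part of these markers in the change of the interferon genes was not tested.

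The high dose raised 4 GTPases and Stat2. The call was made for 5 of 41 members (12.2%), all higher, beside 15.6% of all genes tested, so the share of members called was not above that of all genes. By role, 4 of the 9 GTPases were called and 1 of the 31 type I genes. At an unadjusted p under 0.05, 8 GTPases and 6 type I genes were higher, together 34.1% of the members beside 23.1% of all genes. Oas1a, Oasl1 and Eif2ak2 (7.32% of members) were lower at that threshold, beside 17% of all genes. High-dose and vehicle libraries did not overlap, with the high dose above, for 9 members (22%) beside 11.8% of all genes, and with the high dose below for Oas1a and Ifi44 (4.88%) beside 16.6% of all genes. The median of all genes was 0.02.

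Gbp4 had 3.06, 4.02, 3.85 and 3.64 log2 CPM in vehicle and 5.75, 6.27 and 4.34 under the high dose. It rose by 1.98 ± 0.43 on the log2 scale (adjusted p = 0.0341), with replicate 3 the lowest of the high-dose tumours. Irgm2 had 3.81, 4.40, 4.28 and 4.33 in vehicle and 6.38, 6.38 and 4.68 under the high dose, a rise of 1.78 ± 0.41 (adjusted p = 0.0361). Igtp had 3.93, 4.42, 4.53 and 4.66 in vehicle and 6.41, 6.34 and 5.11 under the high dose, a rise of 1.65 ± 0.34 (adjusted p = 0.032). All 3 genes had every high-dose tumour above every vehicle tumour, and in each the rise was carried mainly by replicates 1 and 2. Igtp and Irgm2 are the neighbours whose promoters are shown above, and they share 8.0% and 4.4% of their exon bases on the same strand, so some of their reads cannot be assigned with certainty. Gbp2 had 6.03, 6.74 and 5.57 under the high dose, above its vehicle maximum of 5.52, and rose by 1.01 ± 0.29 (adjusted p = 0.0477). Stat2, the partner of IRF9 on the ISRE, had 5.33, 5.33, 5.48 and 5.70 in vehicle and 7.12, 6.43 and 5.85 under the high dose, a rise of 1.09 ± 0.28 (adjusted p = 0.042).

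Iigp1 had the largest change of all members, 2.81 ± 0.84, with 8.60, 7.52 and 5.28 under the high dose. Replicate 3 lay below the vehicle maximum of 5.40, and the adjusted p was 0.0517. Gbp5 (1.30 ± 0.40, adjusted p = 0.0525) and Irgm1 (0.80 ± 0.27, adjusted p = 0.0654) also missed the threshold. Type I genes lay on both sides of 0, with 22 of 31 above it. Herc6 had 4.26, 3.63 and 3.19 under the high dose, above its vehicle maximum of 2.98. Isg15 had 3.88, 3.67 and 3.68 under the high dose, within the vehicle range, with a log2 change of -0.09 ± 0.18. Irf7 had 5.50, 4.87 and 3.95, a spread wider than that of its vehicle tumours, with a change of 0.13 ± 0.42. The lowest change was that of Oasl1 at -0.78 ± 0.33 (adjusted p = 0.113). Ifit1 (0.42 ± 0.31), Ifit3 (0.29 ± 0.35), Usp18 (0.48 ± 0.26), Ddx58 (0.36 ± 0.12) and Rsad2 (-0.11 ± 0.46) were not called either. Irf1 had 6.80, 7.03 and 6.74, a change of 0.24 ± 0.12.

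**Figure D3:**
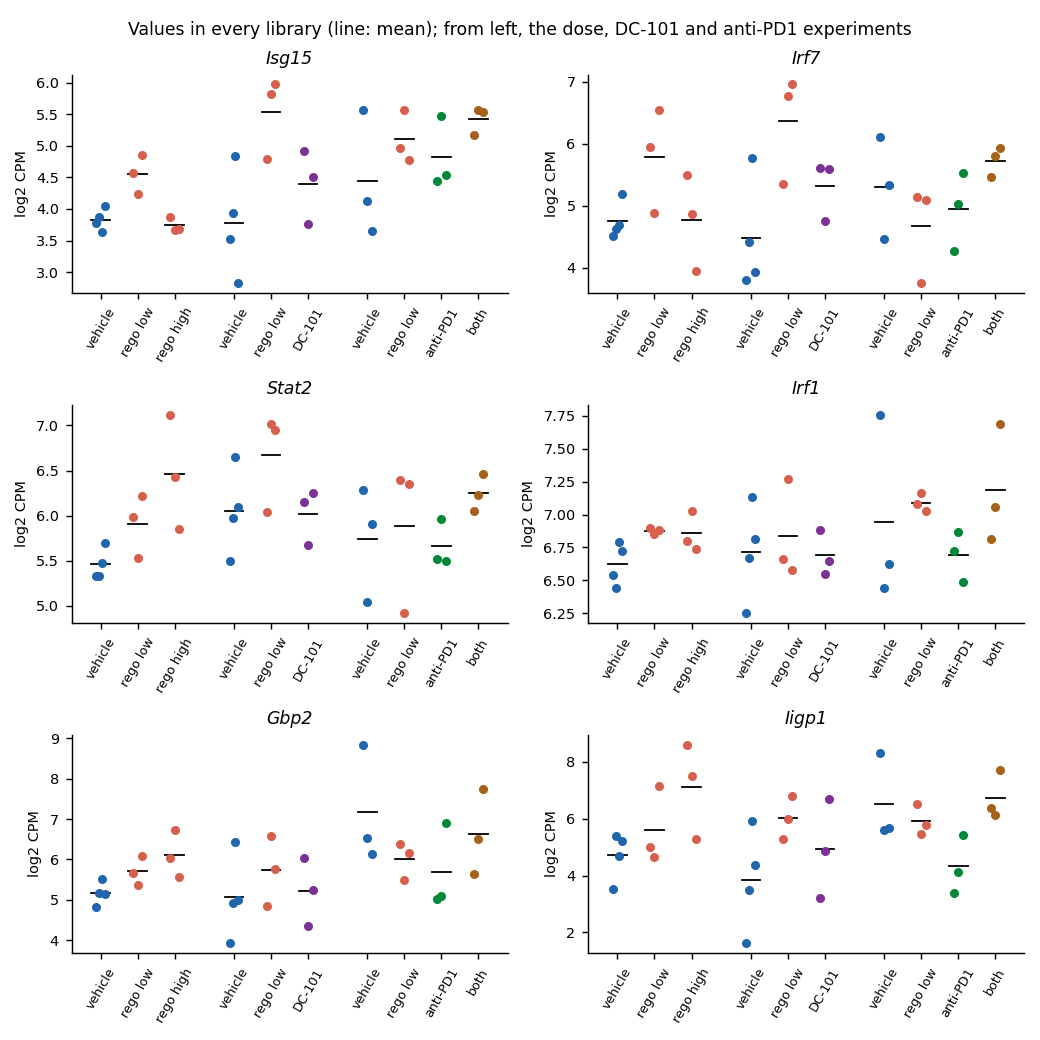
Log2 CPM (y axis) of Isg15, Irf7, Stat2, Irf1, Gbp2 and Iigp1 in each of the 32 libraries (points), with a line at each group mean (rego, regorafenib; both, low-dose regorafenib with anti-PD1), with the experiments on dose, DC-101 and anti-PD1 from left to right. In the dose experiment Isg15 is higher than vehicle under the low dose (4.23 to 4.86) but not under the high dose (3.67 to 3.88). Its low-dose libraries overlap with vehicle in the other experiments. Iigp1 reaches 8.60 under the high dose and 8.30 in vehicle replicate 1 of the anti-PD1 experiment.

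The calls under the high dose were sensitive to the libraries used. Of 17 alternatives, the call held in 9 for Igtp, in 5 each for Gbp4, Irgm2 and Stat2 and in 4 for Gbp2. In that order, their lowest log2 changes were 0.87, 1.19, 0.83, 0.47 and 0.65. Without high-dose replicate 3, 14 members were called, 8 of them GTPases (34.1% of members), beside 41.1% of the 17092 genes then tested, so this rise was shared by all genes. Without any other single library of the comparison 0 or 1 member was called. Without high-dose replicate 1, the library with 5.37% mitochondrial counts, 1 GTPase was called, beside 5.65% of all genes, the GTPase median was 1.43 with all 9 above 0, and the type I median was 0.17. Without high-dose replicate 2 the GTPase median was 0.69 and the type I median 0.19. With the hepatocyte marker level as a covariate no member was called, beside 1.48% of all genes, and the GTPase median was 0.65 and the type I median 0.00. The tumours also differed in cell markers. Of 11 T and NK cell markers tested, 6 were called higher, with a summed level of 4.79 to 6.03 beside 3.65 to 4.60 in vehicle. Of 10 macrophage markers, 8 were called lower, and 10 of 12 hepatocyte markers were higher at an unadjusted p under 0.05. Of 6 liver tumour markers 2 were called higher, and of 8 endothelial and 5 erythrocyte markers 2 and 1 were called lower. The part of these markers in the change of the GTPases was not tested.

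The high dose was also set against the low dose, since these groups share no tumours. Isg15 fell by 0.83 ± 0.20 (adjusted p = 0.0498) and Oas1a by 1.14 ± 0.20 (adjusted p = 0.0234). Oas1a had 3.24, 3.75 and 3.61 log2 CPM under the high dose, below all low-dose tumours. These were the 2 members called (4.88%), beside 4.22% of all genes. The call held in 4 of 16 alternatives for Isg15 and in 10 of 16 for Oas1a, and no member was called without low-dose replicate 1 or 3. Type I genes made up all 10 members (24.4%) that were lower at an unadjusted p under 0.05, beside 13% of all genes, and also the 10 (24.4%) whose libraries did not overlap with the high dose below, beside 16.2% of all genes. The type I median change was -0.36 and that of the GTPases 0.45 (0.07 without high-dose replicate 2), with a median over all genes of 0.07. The largest fitted changes were those of Iigp1 (1.62 ± 0.90, adjusted p = 0.243) and Oasl1 (-1.48 ± 0.35, adjusted p = 0.0512). Of the OAS family, Oas3 (-1.07 ± 0.36) was likewise below the low dose without overlap. Macrophage markers differed here too, with 8 of 10 called lower under the high dose, and 2 of 6 liver tumour markers were called higher. The part of these markers was not tested.

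In the DC-101 experiment the low dose gave the highest type I median of any treatment against vehicle, and the vehicle tumours varied widely, with a mean type I level of 4.17 ± 0.65 log2 CPM (SD, n = 4) beside 4.19 ± 0.13 in the dose experiment. No member was called with edgeR (0 of 41, beside 0.0248% of the 16138 genes tested) or with voom, and DESeq2 called 14, all type I genes, beside 6.80% of all genes. At an unadjusted p under 0.05, 23 members were higher (56.1%), beside 7.58% of all genes, and all 23 were type I genes. The number was 12 without low-dose replicate 3, 13 without low-dose replicate 2 and 14 to 15 without vehicle replicate 1, 2 or 4. It was 13 with the hepatocyte covariate, and without vehicle replicate 3 it was 28 type I genes and 5 GTPases. The share of all genes in these fits is not given here and may have moved as well. Only Oas1a, Cmpk2 and Bst2 had every low-dose tumour above every vehicle tumour (7.32% of members, beside 6.93% of all genes). The median change was 1.18 over the type I genes and 0.74 over the GTPases, beside 0.01 over all genes.

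Isg15 had 3.53, 3.93, 4.83 and 2.83 log2 CPM in vehicle and 4.79, 5.82 and 5.97 under the low dose, overlapping through vehicle replicate 3. Its change was 1.66 ± 0.48 (adjusted p = 0.159). Irf7 had 3.80, 4.42, 5.77 and 3.93 in vehicle and 5.36, 6.77 and 6.96 under the low dose, overlapping through the same vehicle tumour (1.81 ± 0.55). Rsad2 had the largest change, 2.74 ± 0.73, from 3.52, 2.73, 4.45 and 2.42 in vehicle to 4.38, 6.80 and 6.55. In each of these genes low-dose replicates 2 and 3 were above all vehicle tumours. Cmpk2, the mitochondrial nucleotide kinase encoded next to Rsad2, had 1.58, 1.92, 3.36 and 1.61 in vehicle and 3.46, 5.25 and 5.28 under the low dose, a change of 2.57 ± 0.64. Oasl1 (1.93 ± 0.51), Ifit3 (1.97 ± 0.67), Ifit1 (1.82 ± 0.62) and Usp18 (1.63 ± 0.58) had changes of similar size, and Ddx58 (0.75 ± 0.32) and Stat2 (0.62 ± 0.31) smaller ones. Parp9, which works with the ubiquitin ligase Dtx3l, was lowest at 0.00 ± 0.21.

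The GTPases varied more among the vehicle tumours. Gbp2 had 3.92, 4.92, 6.42 and 4.99 in vehicle and 4.84, 6.58 and 5.76 under the low dose, a change of 0.55 ± 0.64. Iigp1 had 1.62, 3.48, 5.91 and 4.38 in vehicle and 5.28, 5.98 and 6.81 under the low dose, a change of 1.59 ± 1.02. Gbp5 (1.21 ± 0.72), Igtp (0.83 ± 0.63) and Irgm1 (0.42 ± 0.40) also overlapped with vehicle. Irf1 had 6.25, 6.67, 7.13 and 6.81 in vehicle and 6.66, 7.27 and 6.58 under the low dose (0.13 ± 0.23). The GTPase median of 0.74 became 0.47 without vehicle replicate 1, 0.48 without low-dose replicate 2 and 0.45 with the hepatocyte covariate. Leaving out vehicle replicate 3 took the medians to 1.60 for the type I genes and 1.41 for the GTPases, and no member was called without it. That tumour had the highest T and NK cell marker level of the vehicle tumours, 5.84 beside a group minimum of 3.49. Of the markers, 2 of 3 plasmacytoid dendritic cell genes were higher under the low dose at an unadjusted p under 0.05 (median change 2.24), and their summed levels in the low-dose tumours, 1.85 to 4.10, overlapped with vehicle. Median changes were 1.53 for neutrophil and 3.08 for hepatocyte markers, 6 of 8 endothelial markers were lower at that threshold, and the part of these markers was not tested.

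DC-101 itself moved no member past the threshold. None of 41 was called with edgeR, voom or DESeq2, beside 0%, 0% and 2.31% of all genes. None had an unadjusted p under 0.05, beside 1084 genes higher and 1047 lower of 16138. Isg15 had 4.91, 3.76 and 4.51 log2 CPM under DC-101, a change of 0.51 ± 0.48, and Irf7 had 5.61, 4.76 and 5.59 (0.66 ± 0.55). Gbp2 had 6.04, 4.35 and 5.23 (0.02 ± 0.64), Iigp1 3.22, 4.86 and 6.71 (1.01 ± 1.01, the highest change) and Irf1 6.88, 6.55 and 6.65 (-0.05 ± 0.23). All of these overlapped with vehicle. Single libraries turned the sign of the GTPase median of -0.14, which was 0.48 without vehicle replicate 3 (type I 0.67, 8 type I genes higher at an unadjusted p under 0.05, beside 2261 of 16091 genes in either direction) and 0.11 without DC-101 replicate 2 (type I 0.49), and the type I median was 0.06 without vehicle replicate 1 or without DC-101 replicate 1. The lowest change was that of Gbp4, -1.16 ± 0.77. Changes of the other followed genes were 0.67 ± 0.51 for Oasl1, 0.42 ± 0.66 for Ifit3, 0.26 ± 0.61 for Ifit1, 0.18 ± 0.58 for Usp18, 0.17 ± 0.72 for Rsad2, 0.29 ± 0.32 for Ddx58, -0.07 ± 0.31 for Stat2, -0.29 ± 0.41 for Irgm1, -0.31 ± 0.64 for Igtp and -0.36 ± 0.73 for Gbp5.

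Set directly against DC-101, the low dose gave a positive log2 change in 40 of 41 members. None was called with edgeR (beside 0% of all genes) or voom, 8 (19.5%) were higher at an unadjusted p under 0.05, beside 4.34% of all genes, and DESeq2 called Rsad2, beside 1.26% of all genes. The 8 became 1 without low-dose replicate 2 or 3 or DC-101 replicate 2, 2 without DC-101 replicate 3, and 18 type I genes and 1 GTPase without low-dose replicate 1. How the share of all genes moved in these fits is not given here. Rsad2 was highest at 2.57 ± 0.81 (adjusted p = 0.481), with 4.28, 2.12 and 3.86 log2 CPM under DC-101, all below the low-dose tumours. Parp9 was lowest at -0.18 ± 0.22. The groups did not overlap, with the low dose above, for Rsad2, Dhx58, Eif2ak2, Gbp4 and Irgm1 (12.2% of members, beside 5.48% of all genes). Medians were 0.82 for the type I genes and 0.75 for the GTPases. The GTPase median was 1.36 without DC-101 replicate 3 and 0.54 without DC-101 replicate 2. Endothelial markers, the cells that VEGFR2 blockade targets, had summed levels of 7.88 to 9.08 in vehicle, 6.89 to 7.24 under the low dose and 6.60 to 7.51 under DC-101.

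In the anti-PD1 experiment, the result for the GTPases rested on vehicle replicate 1. Gbp2 had 8.84, 6.54 and 6.13 log2 CPM in the vehicle tumours, and Iigp1 8.30, 5.59 and 5.69. Igtp had 7.82 in that tumour beside 4.60 and 4.75. The same tumour had a summed T and NK cell marker level of 6.33, beside a group minimum of 3.14, and 19 counts of Ifng beside 2 and 0. The medians below are therefore given with and without it, and the changes of Isg15, Irf7, Gbp2 and Iigp1 too.

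The low dose in this experiment called none of 41 members with edgeR, voom or DESeq2, beside 0%, 0% and 2.56% of all genes. None had an unadjusted p under 0.05, beside 809 genes higher and 1155 lower of 16615. Without vehicle replicate 1, 7 type I genes were higher at that threshold. Without vehicle replicate 2 or 3, 1 and 2 GTPases were lower. The share of all genes in these leave-out fits is not given here. Gbp2 had 6.37, 5.50 and 6.17 under the low dose, and its change of -1.64 ± 0.79 was the lowest of the members. Iigp1 had 6.51, 5.48 and 5.79 (-1.13 ± 0.76), and the GTPase median was -1.13 with all 9 below 0. Isg15 had 5.57, 4.12 and 3.65 in vehicle and 4.97, 5.56 and 4.77 under the low dose (0.45 ± 0.47), and the type I median was 0.18. Irf7 had 6.11, 4.46 and 5.34 in vehicle and 5.15, 3.76 and 5.10 under the low dose (-0.66 ± 0.47), and Irf1 had 7.76, 6.44 and 6.62 in vehicle and 7.08, 7.16 and 7.03 under the low dose (0.03 ± 0.34). Changes were 0.35 ± 0.55 for Ifit1, -0.02 ± 0.51 for Ifit3, -0.01 ± 0.62 for Rsad2, -0.33 ± 0.45 for Oasl1, 0.03 ± 0.44 for Usp18, 0.20 ± 0.39 for Stat2, 0.38 ± 0.49 for Ddx58, -1.16 ± 0.90 for Gbp5, -0.94 ± 0.81 for Igtp and -0.28 ± 0.59 for Irgm1, and Cmpk2 was highest at 0.52 ± 0.65. Without vehicle replicate 1 the GTPase median was 0.31 with 8 of 9 above 0, and the type I median was 0.61, so the direction of the GTPases turned. With that tumour dropped the change was 1.22 ± 0.40 for Isg15, -0.21 ± 0.47 for Irf7, -0.33 ± 0.66 for Gbp2 and 0.31 ± 0.62 for Iigp1. The type I median was -0.05 with 13 of 31 above 0 without vehicle replicate 2, 0.04 without vehicle replicate 3, 0.08 without low-dose replicate 1 or 3, 0.29 without low-dose replicate 2 and 0.00 with the hepatocyte covariate. At an unadjusted p under 0.05, 7 of 8 endothelial, 7 of 12 hepatocyte and 5 of 5 erythrocyte markers were lower under the low dose, and their part was not tested.

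Anti-PD1 alone called none of 41 members with edgeR (beside 0% of all genes) or voom, and DESeq2 called Iigp1 (lower), beside 3.70% of all genes. At an unadjusted p under 0.05, 5 GTPases were lower (12.2% of members), beside 8.78% of all genes. The number was 8 without vehicle replicate 2 or 3, 3 with a replicate block, 2 with no filter, and 1 without anti-PD1 replicate 1 or 2, with voom or with the hepatocyte covariate. How the share of all genes moved with it is not given here. Iigp1 had 3.40, 4.14 and 5.44 log2 CPM under anti-PD1, below every vehicle tumour, with a change of -2.55 ± 0.80 (adjusted p = 0.251). Gbp7 was the other member with anti-PD1 below vehicle without overlap (4.88% of members, beside 9.2% of all genes), at -1.57 ± 0.58. Gbp2 had 5.03, 5.10 and 6.90, with replicate 3 above the lower vehicle tumours (-1.74 ± 0.79). Changes were -2.10 ± 0.93 for Gbp5, -1.44 ± 0.82 for Igtp and -0.62 ± 0.59 for Irgm1. Type I genes had a median of -0.11, with Isg15 at 4.45, 5.47 and 4.53 (0.21 ± 0.47), Irf7 at 4.28, 5.03 and 5.53 (-0.42 ± 0.47) and Irf1 at 6.72, 6.87 and 6.49 (-0.36 ± 0.34). Ifit1 (0.17 ± 0.55), Ifit3 (0.03 ± 0.51), Rsad2 (-0.03 ± 0.62), Oasl1 (0.27 ± 0.45), Usp18 (0.02 ± 0.44), Stat2 (-0.15 ± 0.39) and Ddx58 (-0.19 ± 0.49) were near 0, and Cmpk2 was highest (0.48 ± 0.65). Without vehicle replicate 1 the GTPase median was -0.41 with 2 of 9 above 0, and none had an unadjusted p under 0.05. The type I median turned from -0.11 to 0.32 with 27 of 31 above 0. The change was then 0.97 ± 0.39 for Isg15, 0.05 ± 0.47 for Irf7, -0.41 ± 0.66 for Gbp2 and -1.09 ± 0.60 for Iigp1. All 12 hepatocyte markers were lower under anti-PD1 at an unadjusted p under 0.05, with a summed level of 10.18 to 11.76 beside 13.38 to 13.87 in vehicle. At the same threshold 4 of 12 T and NK cell markers (median change -0.97), 5 of 5 erythrocyte and 3 of 8 endothelial markers were lower, and the part of these markers was not tested.

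The combination called none of 41 members against vehicle with edgeR, voom or DESeq2, beside 0%, 0% and 0.903% of all genes. Oas1a (0.64 ± 0.26) was the 1 member (2.44%) higher at an unadjusted p under 0.05, beside 3.71% of all genes. Isg15 had 5.17, 5.56 and 5.54 log2 CPM (0.75 ± 0.47), Irf7 5.46, 5.81 and 5.93 (0.30 ± 0.47) and Irf1 6.81, 7.06 and 7.69 (0.17 ± 0.34). Gbp2 had 5.65, 6.50 and 7.74 and was lowest at -0.81 ± 0.77, and Iigp1 had 6.39, 6.12 and 7.70 (-0.20 ± 0.76). All 5 overlapped with vehicle. Cmpk2 was highest (1.24 ± 0.65), followed among the genes traced here by Ifit1 (1.01 ± 0.55), Ifit3 (0.75 ± 0.51), Rsad2 (0.69 ± 0.62), Usp18 and Ddx58 (0.61 ± 0.44 and 0.61 ± 0.49), Oasl1 (0.58 ± 0.45) and Stat2 (0.42 ± 0.39). GTPase changes were -0.15 ± 0.89 for Gbp5, -0.10 ± 0.80 for Igtp and 0.20 ± 0.58 for Irgm1. The type I median was 0.53 and the GTPase median -0.27. Without vehicle replicate 1 these were 0.89 and 1.18, all 9 GTPases were above 0, and again no member was called, while 18 type I genes and 2 GTPases were higher at an unadjusted p under 0.05, beside 1739 of 17047 genes in either direction. The change was then 1.51 ± 0.40 for Isg15, 0.77 ± 0.48 for Irf7, 0.51 ± 0.68 for Gbp2 and 1.24 ± 0.64 for Iigp1. The medians were 0.25 and -0.61 without vehicle replicate 2 and 0.45 and -0.60 without vehicle replicate 3. The GTPase median was -0.85 without combination replicate 3, -0.01 without replicate 1, -0.15 without replicate 2, -0.53 with the hepatocyte covariate, -0.07 with a replicate block and 0.06 with voom. Among the markers, 2 of 5 of plasmacytoid dendritic cells (median change 1.37) and 1 of 12 of T and NK cells (median change 1.02) were higher at an unadjusted p under 0.05, and 4 of 5 erythrocyte and 3 of 8 endothelial markers were lower, and their part was not tested.

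The combination was then set against anti-PD1 alone. The changes do not use the vehicle levels, while their errors come from a fit over all 4 groups. The libraries did not overlap, with the combination above, for 18 of 41 members (43.9%), beside 16% of all genes. These were 14 type I genes, Stat2, Irf9, Ddx58, Ifih1, Mx2 and Herc6 among them, and 4 GTPases, Iigp1, Igtp, Irgm2 and Gbp7. None was called with edgeR, voom or DESeq2, beside 0%, 0% and 1.26% of all genes. Iigp1, Gbp7 and Herc6 (7.32% of members) were higher at an unadjusted p under 0.05, beside 6.52% of all genes. In a fit on only the groups compared, 14 type I genes and 6 GTPases were higher at that threshold, beside 3793 of 15649 genes in either direction, and again none was called. Iigp1 was highest, at 2.34 ± 0.79 (adjusted p = 0.474), and Bst2, which tethers budding virus particles, was lowest at -0.06 ± 0.27. Medians were 0.60 for the type I genes, 1.28 for the GTPases and 0.00 for all genes, and without combination replicate 3 the GTPase median was 0.73. Markers moved with them, 9 of 12 T and NK cell markers and 11 of 12 hepatocyte markers being higher at an unadjusted p under 0.05. The T and NK cell markers had a summed level of 5.51 to 6.70 under the combination and 3.53 to 4.59 under anti-PD1, and their part was not tested. Mitochondrial counts did not overlap either, at 1.36% to 2.34% under the combination and 0.37% to 0.68% under anti-PD1. The part of this difference between the libraries was not tested.

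Against the low dose alone, the combination called none of 41 members with edgeR, voom or DESeq2, each beside 0% of all genes. None had an unadjusted p under 0.05, beside 390 genes higher and 215 lower of 16615. Gbp5 was highest at 1.01 ± 0.90 and Eif2ak2 lowest at -0.23 ± 0.25. Medians were 0.31 for the type I genes and 0.83 for the GTPases, and without combination replicate 3 they were 0.23 and 0.15, and without low-dose replicate 2 they were 0.19 and 0.47.

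**Figure D4:**
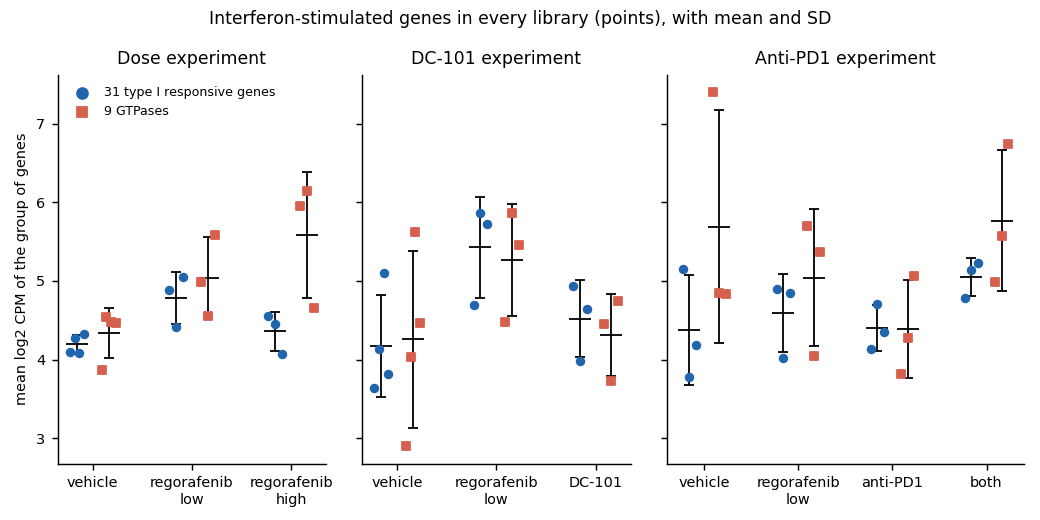
Mean log2 CPM (y axis) of the 31 type I responsive genes (blue circles) and the 9 GTPases (red squares) in each library, with the mean and SD of each group in black, for the 3 experiments (both, low-dose regorafenib with anti-PD1). Replicate 1 of the anti-PD1 experiment's vehicle lies at 7.40 for the GTPases, above every other tumour plotted.

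The low dose was given in all 3 experiments, and a fit over them with the experiment as a term gave 1 call of 41 (2.44%), beside 1.52% of the 17238 genes tested. Oas1a rose by 0.73 ± 0.17 on the log2 scale (adjusted p = 0.0339). The call held in 17 of 32 alternatives, and the adjusted p was 0.235 without the dose experiment, 0.317 without that on DC-101 and up to 0.0684 where single libraries were left out (low-dose replicate 2 of the experiment on DC-101). Its libraries were above vehicle without overlap in the dose and DC-101 experiments. In the anti-PD1 experiment it had 4.15, 3.63 and 3.60 log2 CPM in vehicle and 3.90, 4.38 and 3.97 under the low dose, and these overlapped. At an unadjusted p under 0.05, 27 members were higher (65.9%), beside 8.02% of all genes, and all 27 were type I genes. The number was 4 without the DC-101 experiment, with a type I median of 0.38, 9 without the dose experiment and 15 when low-dose replicate 2 was dropped from that on DC-101. It was 28 type I genes and 5 GTPases without the anti-PD1 experiment. How the share of all genes moved in these fits is not given here. The type I median was 0.66 with all 31 above 0, and the GTPase median was 0.26. The GTPase median was 0.00 without the dose experiment or the DC-101 experiment, 0.71 without that on anti-PD1, 0.06 with the hepatocyte covariate and 0.13 when low-dose replicate 3 of the first or low-dose replicate 2 of the second was left out. It was 0.14 when the second lost vehicle replicate 1, and 0.41 when the third lost low-dose replicate 2. Cmpk2 had the highest change (1.40 ± 0.38, adjusted p = 0.0693), and Gbp2 the lowest (-0.08 ± 0.42). Of 8 endothelial markers 6 were called lower and of 10 macrophage markers 1 was called higher, and their part was not tested.

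Over the 3 experiments Isg15 had 0.97 ± 0.27 (adjusted p = 0.0801), Ifit1 1.07 ± 0.33, Ifit3 1.07 ± 0.37, Rsad2 1.18 ± 0.44, Oasl1 0.83 ± 0.34, Usp18 0.87 ± 0.31, Irf7 0.87 ± 0.38, Stat2 0.43 ± 0.20 and Ddx58 0.50 ± 0.22. Irf1 had 0.13 ± 0.15, and among the GTPases Gbp5 had 0.50 ± 0.48, Iigp1 0.68 ± 0.57, Igtp 0.28 ± 0.44 and Irgm1 0.26 ± 0.29. Whether the low-dose change itself differed between the experiments was tested by an F-test of the interaction. It called none of 41 members with edgeR, voom or DESeq2, beside 0%, 0% and 0.65% of all genes. With edgeR the lowest adjusted p of a member was 0.426, and 5 had an unadjusted p under 0.05 (Gbp2, Irf7, Mx2, Oasl1 and Rsad2), beside 1695 of all genes. When vehicle replicate 1 from the anti-PD1 experiment was left out, 10 type I genes were called in the joint fit, beside 1.66% of all genes, 29 type I genes and 6 GTPases were higher at an unadjusted p under 0.05 (beside 2893 of 17718 genes in either direction), and the GTPase median was 0.56.

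Libraries of the same group also differed among themselves, and the members moved together when they did. After subtraction of each group's mean, the median correlation over 32 libraries was 0.87 between pairs of GTPases (36 pairs), 0.68 between pairs of type I genes (465 pairs) and 0.68 between a type I gene and a GTPase. The mean GTPase level deviated with Cxcl9, a chemokine induced by interferon gamma (Pearson r = 0.95, Spearman rho = 0.94), with the T and NK cell markers (r = 0.83, rho = 0.80) and with Ifng itself (r = 0.70, rho = 0.65), whose counts were low. The type I level deviated with Cxcl10 (r = 0.89, rho = 0.88) and less with the T and NK cell markers (r = 0.69, rho = 0.56). Without the pair of libraries farthest from the median of the markers, r was 0.75 for the GTPases and 0.55 for the type I genes. Correlations with macrophage (r = 0.13 and -0.01) and hepatocyte markers (r = 0.26 and 0.21) were weak for both, and those with plasmacytoid dendritic cell markers were 0.51 for the GTPases and 0.47 for the type I genes. These are descriptions over libraries that share their scaling and depth, and no p was computed.

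**Figure D5:**
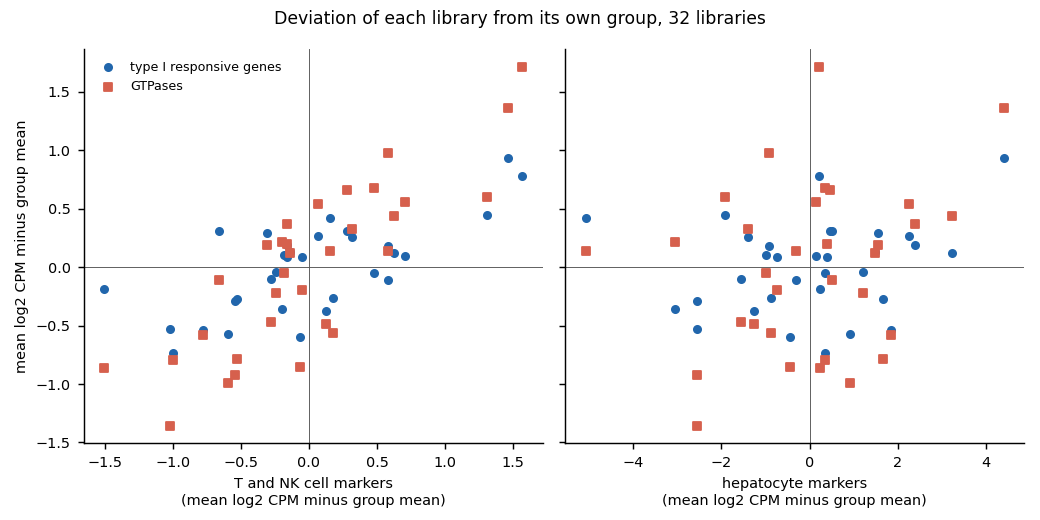
Deviation of each of the 32 libraries from the mean of its own group, for type I responsive genes (blue circles) and GTPases (red squares) on the y axis, against T and NK cell markers (left) and hepatocyte markers (right), all as mean log2 CPM. The GTPases follow the T and NK cell markers (r = 0.83) more closely than the hepatocyte markers (r = 0.26).

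The genes upstream of the members were read from a list of 46 pathway genes. Interferon genes themselves were hardly seen. Ifnb1 had 0 to 11 counts (median 1), with at most 3 in 30 of 32 libraries, and Ifng had 0 to 33 counts (median 2). Ifna1, Ifna4, Ifna5 and Ifnl2 had no count in any library, and Ifna2, Ifnk and Ifnl3 at most 1. Ifng had 6, 16 and 33 counts in the combination, 19 in the anti-PD1 experiment's vehicle replicate 1, and 10 to 13 in 1 low-dose tumour each of the anti-PD1 and DC-101 experiments and 1 high-dose tumour. Ifng was the 1 ligand with enough reads to be tested, and only where the anti-PD1 experiment was included. Its change was 3.14 ± 1.28 for the combination against anti-PD1 (unadjusted p = 0.0316, adjusted p = 0.529 with edgeR) and 1.30 ± 1.09 for the combination against vehicle (adjusted p = 0.761).

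Under the high dose, 2 pathway genes rose and 4 fell of 36 tested, 16.7% called beside 15.6% of all genes. The calls over all genes went from 2582 to between 15 and 83 when 1 vehicle library was left out. Whether these pathway calls then held is not given here. The receptor chains Ifngr1 and Ifngr2 fell by 0.53 and by 0.51 (adjusted p = 0.0368 and 0.0448) on the log2 scale. Tmem173, which encodes the DNA-sensing adaptor STING, fell by 1.02 (adjusted p = 0.0428), and Irf5, a factor of myeloid cells, fell by 1.02 (adjusted p = 0.0334). Ikbke, a kinase that activates IRF3, rose by 0.89, and Mavs, the adaptor below RIG-I, rose by 0.84 (adjusted p = 0.0191 and 0.0451). Cxcl9 had a change of 0.90 and was not called. Against the low dose, 7 of 36 were called (19.4%), beside 4.22% of all genes. The receptor chains Ifnar1, Ifngr1 and Ifngr2 and the inducers Tmem173, Irf5 and Tlr7 were lower under the high dose, and Ikbke was higher. Under the low dose over the 3 experiments, 1 of 37 was called (2.7%, beside 1.52% of all genes), Ifngr2 (0.42, adjusted p = 0.0314). Against vehicle no pathway gene was called under DC-101, anti-PD1, the combination or the low dose within any experiment. At an unadjusted p under 0.05, 1 of 36 was higher under DC-101 (all genes, 1084 higher and 1047 lower of 16138). Under anti-PD1 2 of 37 were higher and 2 lower (810 and 1459 of 16615), and under the combination 4 were higher (616 and 746). Under the low dose 9 of 36 were higher in the dose experiment (399 and 418 of 16525). In the DC-101 experiment 8 of 36 were higher and 1 lower (1223 and 1543 of 16138). In the anti-PD1 experiment 3 of 37 were higher (809 and 1155 of 16615).

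Near copies of the members were read alongside, since reads may be shared between them. Of 16 tested under the high dose, 7 rose and none fell (43.8% called beside 15.6% of all genes), and all 7 were GTPases, Gbp2b, Gbp6, Gbp8, Gbp9, Gbp10, Gm12250 and Gm4951. Leaving out 1 vehicle library cut the calls over all genes from 2582 to between 15 and 83. Which of the 7 calls then held is not given here. Gbp10 rose by 3.47 (adjusted p = 0.0364) and Gbp6 by 2.53 (adjusted p = 0.0305). Mx1 (-0.10) and Oas1g (-0.62), near copies of type I members, were not called. Under the low dose in the DC-101 experiment Ifit1bl1 had 3.45 and Ifit3b 2.55, not called.

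Levels per length of transcript ordered the members differently from their changes. In the vehicle tumours of the dose experiment, Bst2 was highest at 148 RPKM (reads scaled by exon length and library size), followed by Irf1 (24.9), Isg15 (19) and Parp9 (14.7). Gbp2 (14.4) was the most abundant GTPase, with Igtp at 10.5. Herc6 (0.699), Mx2 (0.889) and Gbp5 (1.01) were lowest. In the anti-PD1 experiment, scaled separately, Gbp2 had a mean of 82.5 and Igtp 45.7 in vehicle, and Gbp2 had 183 in replicate 1.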

How the data were processed

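RNA was measured by stranded poly(A) sequencing in 32 tumour libraries of 3 experiments, each with its own vehicle group. Per the labels and the study's methods, the authors trimmed reads with cutadapt 2.4, aligned them with STAR 2.7.2a to GRCm38 with Gencode M19, and deposited raw counts per gene in 1 table per experiment; which strand column was kept is not given in the sources used here. Gene symbols came from Gencode M21. Genes with too few reads were left out by filterByExpr (minimum count 10, total 15), and edgeR 4.0.16 (R 4.3.3) fitted robust quasi-likelihood models with TMM scaling within each experiment, with Benjamini-Hochberg adjustment over all genes tested. The low dose was also fitted over the 3 experiments with the experiment as a term. Levels are log2 CPM with a prior count of 2. Depth was 16.8 to 27.7 M counts. Libraries of a group differed beyond sampling noise (chi-square per degree of freedom at least 12.9 over 36 pairs). The tests were checked on simulated data.

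The members, pathway, near-copy and marker lists were chosen with earlier results of these data known, so no pattern here is independent support. Genes named with values were 15 members fixed by name, members called, and the highest and lowest change in each comparison; Oas1a, Cmpk2 and others named beyond these were chosen after their values were seen. Alternatives were limma-voom (limma 3.58.1), DESeq2 1.42.0, other scalings and filters, a hepatocyte covariate, a replicate block, only the groups compared, and each library left out in turn.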

Additional observations from a re-analysis of the deposited data

Results flagged for a closer look

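Of 82 groups of 4 vehicle libraries tested over the members, 3 had a library far from the rest, where chance alone puts about 5% of groups apart. Ifi35, an interferon-induced protein, had 5.06 log2 CPM in the DC-101 experiment's vehicle replicate 3, while the other 3 vehicle libraries had 4.37 to 4.47. In vehicle replicate 1 of the dose experiment, Gbp3 had 3.99 beside 4.50 to 4.56, and Parp14, a PARP enzyme, had 5.56 beside 5.82 to 5.86.

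For 6 members every low-dose library lay above the mean of its vehicle in one experiment and every low-dose library lay below it in the anti-PD1 experiment. This pattern itself was not tested, and the interaction test of the fit called none of these genes. Irf7 lay 1.03 above the vehicle mean on the log2 CPM scale in the dose experiment and 1.88 above it in the DC-101 experiment, beside -0.63 in the anti-PD1 experiment. Gbp3 lay 0.51 and 1.11 above in the same experiments, beside -0.79. In the dose experiment the difference was 0.55 for Gbp2, 1.10 for Gbp5 and 0.60 for Gbp7, beside -1.16, -0.93 and -0.37 in the anti-PD1 experiment. Iigp1 lay 2.18 above in the DC-101 experiment, beside -0.60. The vehicle mean of the anti-PD1 experiment includes replicate 1, whose GTPase level was 7.40.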

How the results depend on the processing

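Counts of members called moved with the method. For the high dose against vehicle (5 called), voom, total count scaling and no filter each called 1 (8.06%, 1.71% and 1.34% of all genes), DESeq2 called 13 (12 higher and Oas1a lower, beside 31.9% of all genes), and the hepatocyte covariate and a fit on only the groups compared called 0 (1.48% and 0.0249%). Leaving out each library gave 0 to 14, the 14 without high-dose replicate 3, where 41.1% of all genes were called. For the high against the low dose (2 called), DESeq2 called 9 (18.5% of all genes), the hepatocyte covariate 4 (3.95%), only the groups compared 0 (0%), and RLE scaling, total count scaling, no filter and 10 counts in every library each 1 (3.99%, 1.20%, 0.996% and 4.73%), with 0 to 9 when libraries were left out in turn, the 9 without high-dose replicate 3. For the low dose over the 3 experiments (1 called), voom called 2 (1.79% of all genes), DESeq2 9 (6.16%), no filter 0 (0.444%), and 0, 0 and 3 were called (0.406%, 0.208% and 2.37%) when the experiment on dose, on DC-101 or on anti-PD1 was dropped, with 0 to 10 when libraries were left out, the 10 without vehicle replicate 1 of the experiment on anti-PD1. DESeq2 called 2 members for the low dose in the dose experiment and 14 in that on DC-101, 1 for anti-PD1 and 1 for the low dose against DC-101, where edgeR called 0. In the other comparisons every library left out gave 0. With a replicate block the high dose, the high against the low dose and the joint fit each called 0 (0.00605%, 0.00605% and 1.02%). Same-numbered libraries deviated together at r over 0.1 in 2 of 9, 4 of 9 and 6 of 18 pairs of the experiments on dose, DC-101 and anti-PD1. The r ran from -0.72 to 0.56, -0.46 to 0.67 and -0.28 to 0.62, and the numbers were not read as pairs. Replicate 2 of vehicle and of the low dose in the anti-PD1 experiment had 0.26% and 0.31% mitochondrial counts. Their Oas2 levels were 1.55 and 1.38 log2 CPM, while their Isg15 levels were 4.12 and 5.56. The GTPase minus type I median, with libraries left out, was -0.08 to 0.19 for the low dose, 0.50 to 1.25 for the high dose, -0.53 to -0.19 and -0.65 to -0.19 for the low dose and DC-101 in the DC-101 experiment, -1.55 to -0.30, -1.77 to -0.73 and -1.26 to 0.29 for the low dose, anti-PD1 and the combination in the anti-PD1 experiment, and -0.49 to -0.26 over the 3 experiments. For the combination it was 0.29 without vehicle replicate 1, against -0.80, a change of direction. Total count scaling moved the median of all genes under the high dose to -0.134 and gave 0.16 for the type I genes and 1.16 for the GTPases. Of 2577 named values under alternatives, 137 changed sign with neither value past the threshold and none with either past it. The cause of these changes was not tested.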
